A study of Mus musculus with 8 samples.

Results

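Matrix metalloproteinases (MMPs) and their tissue inhibitors (TIMPs) were examined in tumors grown from colon carcinoma 26 (C26) cells with and without a working Il6 gene. The 10 genes are Mmp2, Mmp3, Mmp9, Mmp10, Mmp12, Mmp13, Mmp14, Timp1, Timp2 and Timp3, out of 27179 genes in the deposited table. They were found by symbol, and each symbol had 1 row. The family was picked because Mmp9 is among the largest rises in these same tumors, so the difference in Mmp9 is given as a description without a test. RNA sequencing was performed on 8 subcutaneous tumors from adult male CD2F1 mice, 4 of them from cxC26 scr cells and 4 from cxC26 IL6KOs1 cells. cxC26 scr is the cachectic C26 line with a scrambled CRISPR/Cas9 guide, and cxC26 IL6KOs1 is 1 subclone of the same line in which CRISPR/Cas9 had disrupted Il6. The knockout line was made with lentiviral guides, puromycin selection and serial dilution to single cells, and the host mice carried an intact Il6 gene. Tumors were taken when mice had lost more than 15% of body weight. In the study's experiments with these cells the knockout mice received more cells and reached this endpoint later, so genotype, subclone, cell number and time of growth cannot be told apart.

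The deposited values corresponded to 14158989 to 17048062 gene reads per tumor. Il6 had 326 to 438 reads in the cxC26 scr tumors and 56 to 86 in the cxC26 IL6KOs1 tumors. The reads came from whole tumors, so fewer cells of a type and less RNA per cell cannot be told apart. Of the epithelial markers, Krt20 had 17390 or more reads in each tumor, whereas Epcam had at most 14 and Krt8 at most 15. Expression is given as log2 CPM, reads scaled to a common library size on a log2 scale, and a difference of 1 is a 2-fold difference. Differences between group means (knockout minus control, as log2 differences with standard errors, SE) were tested with limma over the 13262 genes that reached 1 CPM in 4 or more tumors, and a call means an adjusted p-value under 0.05. All 10 members had more than 1 CPM in all 8 tumors, so none passed this filter through 1 group alone.

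MMPs are zinc endopeptidases that are made as inactive proenzymes and cut the proteins of the extracellular matrix, along with cytokines and other proteases. They are grouped by what they cut. The collagenase Mmp13 cleaves fibrillar collagen, the gelatinases Mmp2 and Mmp9 cut denatured collagen and basement membrane collagen, the stromelysins Mmp3 and Mmp10 have broad matrix substrates and activate other proenzymes, and Mmp12 is the elastase of macrophages. Mmp14 sits in the cell membrane and activates proMmp2 together with Timp2. TIMPs block the active site of these enzymes. In tumors MMPs come from cancer cells, fibroblasts and infiltrating myeloid cells.

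Among the members, Mmp3, Mmp10, Mmp12 and Mmp13 lie in 1 cluster on chromosome 9, on the forward strand of GRCm38. RefSeq gave promoter sequences for 8 of the 10 members, all except Mmp2 and Mmp9. The last 100 bases before each annotated start of the 4 cluster genes are shown, and Mmp12 has 2 annotated starts. Mmp3, Mmp10 and Mmp13 were called lower and Mmp12 was not called, but the changes of these genes were not tested against each other. Capitals mark matches to TGANTCA, the recognition sequence of AP-1 (the Fos and Jun factors), which reads the same on both strands.
Mmp13 at chr9:7272414-7272513: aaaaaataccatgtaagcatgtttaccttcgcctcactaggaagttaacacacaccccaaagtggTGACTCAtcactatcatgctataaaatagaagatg
Mmp3 at chr9:7445722-7445821: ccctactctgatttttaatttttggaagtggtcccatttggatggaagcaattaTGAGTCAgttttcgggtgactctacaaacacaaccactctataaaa
Mmp10 at chr9:7502242-7502341: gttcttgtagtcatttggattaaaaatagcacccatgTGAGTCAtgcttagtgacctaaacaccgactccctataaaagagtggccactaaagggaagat
Mmp12, upstream start, at chr9:7344297-7344396: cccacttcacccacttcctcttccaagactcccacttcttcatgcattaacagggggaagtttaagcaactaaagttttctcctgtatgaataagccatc
Mmp12, downstream start, at chr9:7347274-7347373: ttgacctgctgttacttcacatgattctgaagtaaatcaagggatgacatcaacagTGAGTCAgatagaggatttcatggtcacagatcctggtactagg
Within the 250 bases before the start, Mmp13, Mmp3, Mmp10 and the downstream start of Mmp12 held 1 match each. None was found before the upstream start of Mmp12 or before Mmp14, Timp1, Timp2 and Timp3. Of all 32851 RefSeq promoters, 6.75% held such a match in the same 250 bases. The sequence TATAAA, the TATA box, was found before Mmp13, Mmp3 and Mmp10 and in 12.4% of all promoters, searched on both strands. The STAT recognition sequence TTCNNNGAA was found before none of the 8 members and in 7.02% of all promoters. These matches describe the letters only.

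The stromelysins Mmp3 and Mmp10 fell by the largest amounts of the 9 members that were tested. Mmp3, on chromosome 9 from 7445822 to 7455975 with 10 exons, had 7.63, 8.23, 8.75 and 8.90 log2 CPM in cxC26 scr tumors 1 to 4. In cxC26 IL6KOs1 tumors 1 to 4 it had 6.20, 5.09, 5.98 and 5.26. Every knockout tumor was below every control tumor. The mean went from 8.38 ± 0.57 to 5.63 ± 0.54 (SD, n = 4 each), a log2 difference of -2.75 (SE 0.291, limma adjusted p = 4.18e-05), which is 14.9% of the control level.
Mmp10, on chromosome 9 from 7502352 to 7510240 and also with 10 exons, had 5.39, 6.002, 6.53 and 6.85 log2 CPM in cxC26 scr tumors 1 to 4. The cxC26 IL6KOs1 tumors had 3.97, 2.31, 3.75 and 2.63. The groups did not overlap here either. Mmp10 had a log2 difference of -3.03 (SE 0.382, limma adjusted p = 0.000133), or 12.2% of the control level. This left 68 to 254 reads per knockout tumor against 701 to 1771 per control tumor.
The stromelysins varied together from tumor to tumor. Within each group, the order of the 4 tumors was the same for Mmp3 and for Mmp10. The difference between the genes was 2.05 to 2.24 log2 units in the cxC26 scr tumors and 2.23 to 2.78 in the cxC26 IL6KOs1 tumors. Among 9997 other genes whose mean reached 3 log2 CPM, the gene whose profile over the 8 tumors was nearest to that of Mmp3 was Mmp10, and the gene nearest to Mmp10 was Mmp3. The root mean square difference of the centred profiles was 0.231 log2 units. Mmp3 and Mmp10 are close paralogues, and 140 of the 1673 stretches of 50 bases in the Mmp10 transcript are also in Mmp3, so part of their reads cannot be assigned with certainty.

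**Figure D1:**
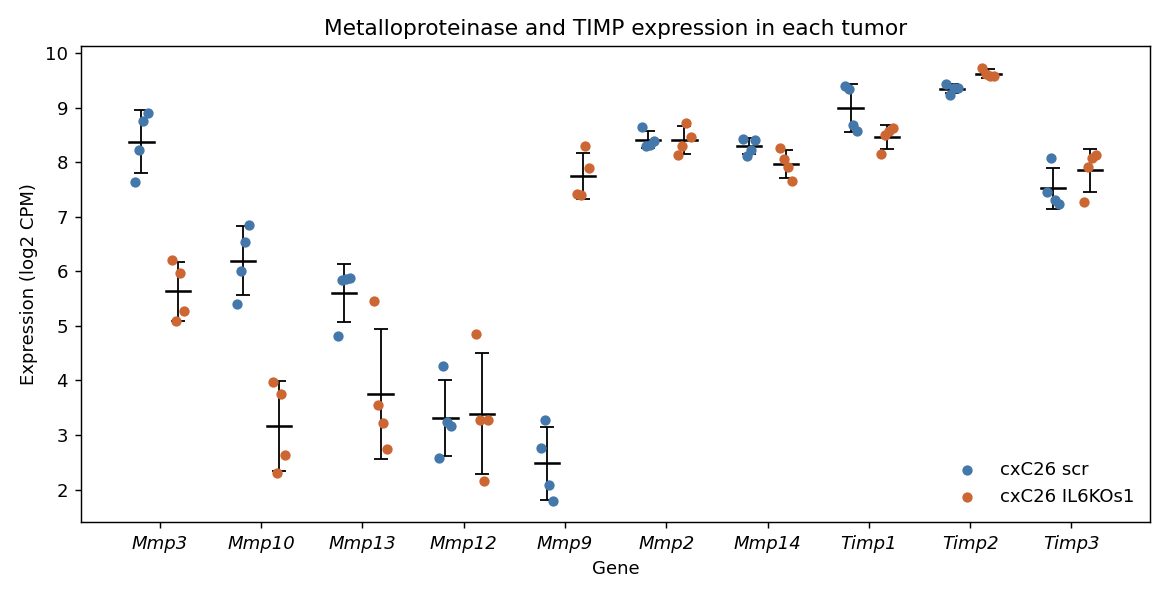
Expression in log2 CPM of the 10 members (x axis) in each tumor, with the cxC26 scr tumors in blue and the cxC26 IL6KOs1 tumors in orange, and bars for the mean and SD of 4 tumors. Mmp3, Mmp10, Mmp9 and Timp2 show no overlap between groups, and Mmp9 goes from 1.80 to 3.27 in the controls to 7.40 to 8.29 in the knockout tumors.

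Mmp13, on chromosome 9 from 7272514 to 7283331, was also lower, but with overlap. The cxC26 scr tumors had 4.81, 5.85, 5.86 and 5.88 log2 CPM. The cxC26 IL6KOs1 tumors had 5.46, 3.55, 3.22 and 2.75. The first knockout tumor, with 717 reads, lay within the control range, and the other 3 had 97 to 162 reads, below every control tumor. Mmp13 had a log2 difference of -1.85 (SE 0.475, limma adjusted p = 0.00935). Without the first knockout tumor it was -2.43 (limma adjusted p = 3.11e-05). With an ordinary variance per gene the adjusted p-value was 0.0756.
Mmp12, the macrophage elastase, did not pass the test. It lies between Mmp13 and Mmp3, and its values were 2.58, 4.26, 3.23 and 3.16 log2 CPM in the cxC26 scr tumors and 4.85, 3.28, 2.16 and 3.28 in the cxC26 IL6KOs1 tumors. The spread within each group was wide and the first knockout tumor was the highest of all 8. Mmp12 had a log2 difference of 0.086, with a 95% interval from -0.97 to 1.14 (limma adjusted p = 0.904). Without the first knockout tumor the value was -0.40 (limma adjusted p = 0.406). In GENCODE M21 an Mmp12 transcript shares 157 exon bases with Mmp1b on the opposite strand, and Mmp1b had 31 reads or fewer per tumor.

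The rest of the cluster had few reads. Mmp1b, which like Mmp1a is a rodent relative of interstitial collagenase, had 11 to 31 reads in the cxC26 scr tumors and 0 to 3 in the cxC26 IL6KOs1 tumors. Against 3 reads per knockout tumor, it was at least 4.65-fold lower, and it was below the filter. Mmp8, the neutrophil collagenase, had 19 to 43 reads in the control tumors and 4 to 21 in the knockout tumors, with a log2 difference of -1.34 (limma adjusted p = 0.0361). That call was lost without cxC26 scr replicate 2, 3 or 4 or cxC26 IL6KOs1 replicate 2, 3 or 4, with adjusted p-values from 0.0530 to 0.108 from limma. Mmp27 had 22 reads or fewer, and Mmp1a, Mmp20 and Mmp7 had at most 3 reads in any tumor. Dcun1d5, the gene next to the cluster on the side of Mmp13, did not pass the test, with a log2 difference of -0.072 (limma adjusted p = 0.536). The 17 other tested genes within 5 Mb of Mmp3 had a median log2 difference of -0.054.

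**Figure D2:**
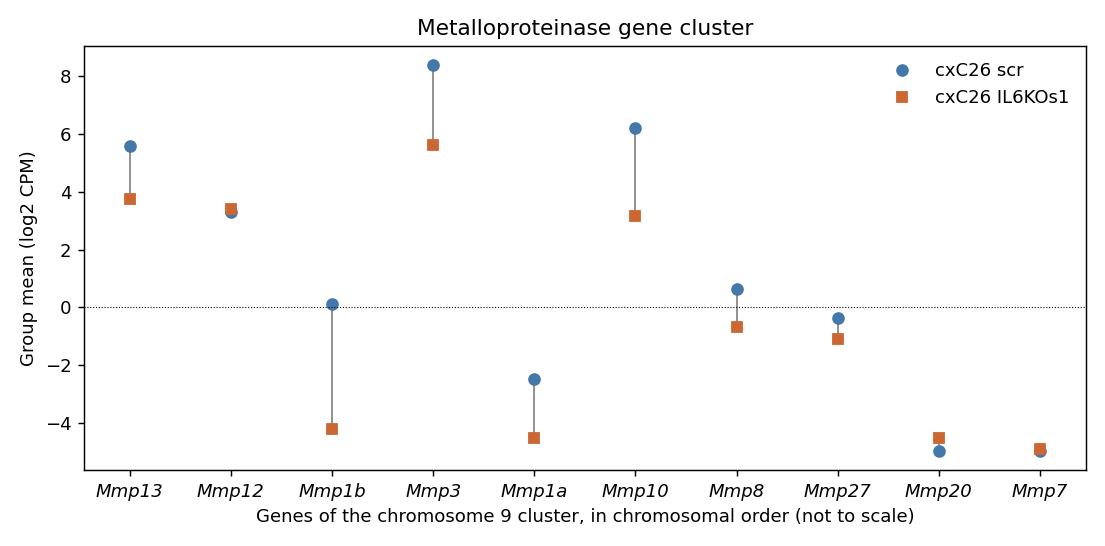
Group means in log2 CPM (y axis) of the metalloproteinase genes of the chromosome 9 cluster, in chromosomal order and not to scale (x axis), for 4 cxC26 scr tumors (circles) and 4 cxC26 IL6KOs1 tumors (squares). Mmp13, Mmp3 and Mmp10 are lower in the knockout tumors and Mmp12 between them is at 3.31 and 3.39, while Mmp20 and Mmp7 sit near the value of 0 reads.

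The gelatinase Mmp9, on chromosome 2 from 164940780 to 164955850 with 13 exons, stood at the other end. It had 113, 156, 60 and 53 reads in cxC26 scr tumors 1 to 4, or 2.77, 3.27, 2.09 and 1.80 log2 CPM. In the cxC26 IL6KOs1 tumors it had 2792, 2340, 4935 and 3438 reads, or 7.43, 7.40, 8.29 and 7.89 log2 CPM. All knockout tumors were far above all control tumors. The mean was 2.48 ± 0.67 in the controls and 7.75 ± 0.42 in the knockout tumors (SD, n = 4 each), a difference of 5.27 log2 units or 38.6-fold. This was the seventh largest log2 difference of the 13262 tested genes, and the family was chosen for it. Among genes whose mean reached 3 log2 CPM, the nearest profiles over the 8 tumors were those of Aldh3a1, Itgb4 and Ctsk, with root mean square differences of 0.674, 0.737 and 1.014 log2 units. The 83 other tested genes within 5 Mb had a median log2 difference of -0.32.
The other gelatinase did not pass the test. Mmp2, on chromosome 8 from 92827291 to 92853420, had 8.64, 8.30, 8.32 and 8.39 log2 CPM in the cxC26 scr tumors and 8.13, 8.29, 8.72 and 8.46 in the cxC26 IL6KOs1 tumors. The groups overlapped fully. The log2 difference was -0.013, with a 95% interval from -0.29 to 0.27 (limma adjusted p = 0.948). The level of Mmp9 was thus 5.03 to 6.59 log2 units below that of Mmp2 in the control tumors and 0.43 to 0.89 below it in the knockout tumors, on the log2 CPM scale, which does not account for gene length.
Mmp14, the membrane-bound activator of proMmp2 on chromosome 14 from 54431612 to 54445364, had 8.42, 8.11, 8.22 and 8.40 log2 CPM in the cxC26 scr tumors. It had 8.26, 8.05, 7.91 and 7.65 in the cxC26 IL6KOs1 tumors. The knockout values reached lower, with overlap. The log2 difference of -0.32 (SE 0.126) did not pass the test (limma adjusted p = 0.0617). Without the first knockout tumor it was -0.42 and passed (limma adjusted p = 0.0151). With any other tumor left out it did not pass (limma adjusted p-values from 0.0520 to 0.156).

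**Figure D3:**
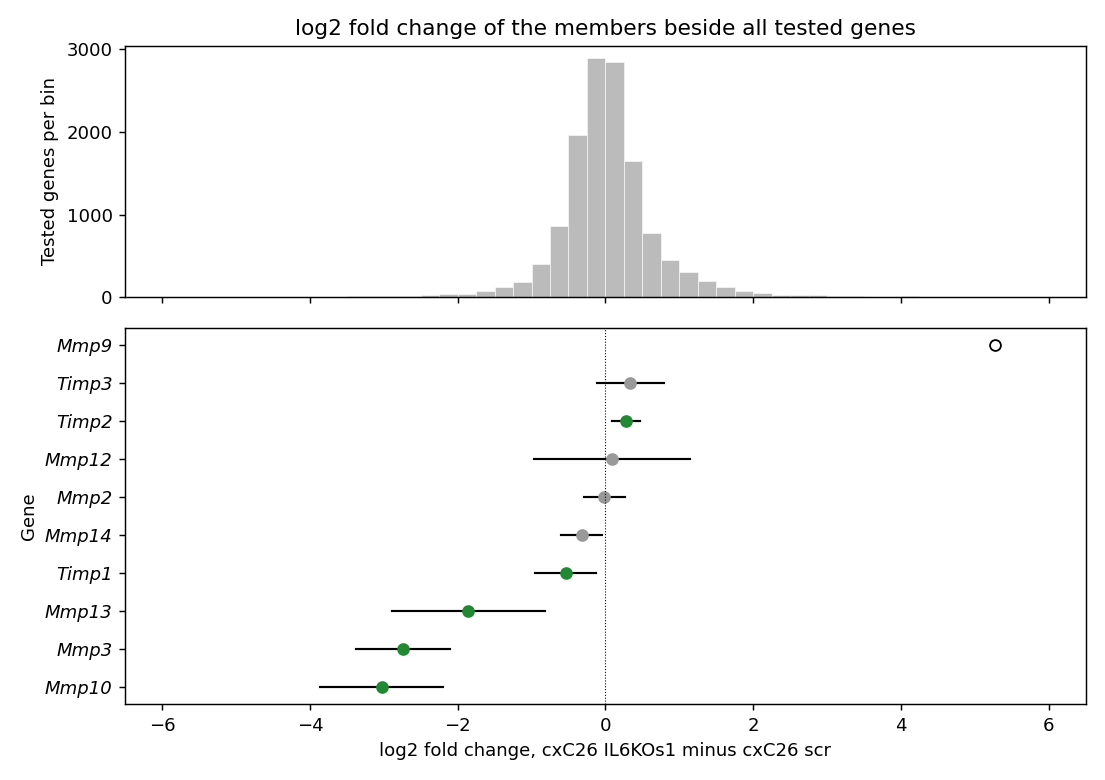
Histogram of the log2 difference of 13262 tested genes in bins of 0.25 (top) and the 10 members with unadjusted 95% intervals from limma (bottom), cxC26 IL6KOs1 minus cxC26 scr. Green marks an adjusted p-value under 0.05 and grey marks none, and the open circle for Mmp9, at 5.27, has no interval because the family was chosen on it.

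The 3 inhibitors showed small differences in different directions. Timp1, which inhibits most secreted MMPs and lies on chromosome X from 20870166 to 20874735, had 9.39, 9.34, 8.68 and 8.56 log2 CPM in the cxC26 scr tumors. The cxC26 IL6KOs1 tumors had 8.14, 8.497, 8.56 and 8.63. Control tumors 1 and 2 were above all others, and control tumors 3 and 4 lay close to the knockout tumors. Timp1 had a log2 difference of -0.54 (SE 0.188, limma adjusted p = 0.0402). This call depended on single tumors. It was lost without cxC26 scr replicate 1 or 2 or cxC26 IL6KOs1 replicate 1, 2 or 3, with adjusted p-values from 0.0603 to 0.116 from limma, and with all genes tested (adjusted p = 0.136).
Timp2, on the reverse strand of chromosome 11 from 118301069 to 118355740, was slightly higher. Its values were 9.42, 9.24, 9.36 and 9.37 log2 CPM in the cxC26 scr tumors and 9.73, 9.62, 9.57 and 9.58 in the cxC26 IL6KOs1 tumors. Every knockout tumor was above every control tumor, in a gene that varied little within groups (SD 0.077 and 0.075, n = 4 each). The log2 difference was 0.28 (SE 0.0868, limma adjusted p = 0.0244), or 1.21-fold. The adjusted p-value was 0.0818 with all genes tested, and 0.0538 to 0.0735 without cxC26 scr replicate 2, 3 or 4 or cxC26 IL6KOs1 replicate 1, all from limma.
Timp3, the inhibitor that binds to the matrix, lies on chromosome 10 from 86300372 to 86349506. It had 7.46, 8.07, 7.31 and 7.23 log2 CPM in the cxC26 scr tumors and 7.28, 7.91, 8.08 and 8.14 in the cxC26 IL6KOs1 tumors. The groups overlapped, with control tumor 2 near the 3 higher knockout tumors and knockout tumor 1 near the 3 lower control tumors. The log2 difference of 0.33 (95% interval from -0.12 to 0.79) did not pass the test (limma adjusted p = 0.223). Without the first knockout tumor it was 0.53 and passed (limma adjusted p = 0.0280). With any other tumor left out it did not pass (limma adjusted p-values from 0.0512 to 0.446). Syn3 on the opposite strand shares 1733 exon bases with Timp3 and had 9 to 26 reads per tumor, against at least 2265 for Timp3. Timp1 lies within Syn1, again on the opposite strand, without shared exon bases.

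Of the 9 members other than Mmp9, 4 were called lower, 1 was called higher and 4 were not called. Over all 13262 tested genes, 20.7% were called lower and 19.1% higher, 39.8% in all. Timp2 was the member called higher, and Mmp3, Mmp10, Mmp13 and Timp1 were those called lower. The median log2 difference of the 9 members was -0.32, and that of all tested genes was -0.0029. The groups did not overlap for 3 of the 9, Mmp3, Mmp10 and Timp2, and for 37.1% of all tested genes. The family was chosen on this contrast, so nothing is read from these counts.

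The members were next compared per length, as CPM per kb of merged GENCODE M21 exons. In the cxC26 scr tumors Timp1 was the highest member at 594 ± 175 CPM per kb, followed by Mmp3 at 195 ± 70.5 and Timp2 at 167 ± 8.83 (SD, n = 4 each). The ranges of Mmp3 and Timp2 overlapped. Mmp2 came next at 102 ± 11.5, then Mmp14, Mmp10, Timp3 and Mmp13 between 52.7 and 19.0, with overlap between each neighbour in this order. Mmp9 at 1.71 ± 0.79 and Mmp12 at 1.499 ± 0.79 were the lowest and overlapped.
In the cxC26 IL6KOs1 tumors Timp1 remained the highest at 399 ± 56.0 CPM per kb, then Timp2 at 203 ± 10.8 and Mmp2 at 101 ± 18.2 (SD, n = 4 each). Mmp9 came to the fourth place at 63.0 ± 19.2 and Mmp3 to the seventh at 29.0 ± 10.6. The ranges of neighbours from Mmp2 down to Mmp3 overlapped. With the longest transcript as the length, Mmp14 was above Mmp9 in the knockout tumors and Mmp12 above Mmp9 in the controls.
The summed expression of the MMPs depended on whether Mmp9 was counted. The summed CPM of the 7 MMPs was 1024 to 1338 in the cxC26 scr tumors and 808 to 1067 in the cxC26 IL6KOs1 tumors, with overlap. Without Mmp9 it was 1017 to 1335 and 614 to 754, with every knockout tumor below every control tumor. Without both Mmp9 and Mmp3, the sum of the other 5 was 733 to 857 and 575 to 691, also with no overlap. These 5 still included Mmp10 and Mmp13, both called lower. Mmp9 made up 0.26% to 0.93% of the sum of the 7 MMPs in the controls and 18.7% to 29.3% in the knockout tumors. Mmp3 made up 19.4% to 35.7% in the controls and 4.21% to 8.001% in the knockout tumors. The summed CPM of the 3 TIMPs was 1189 to 1536 and 1289 to 1440 in the same order. All of these sums are given without a test.

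**Figure D4:**
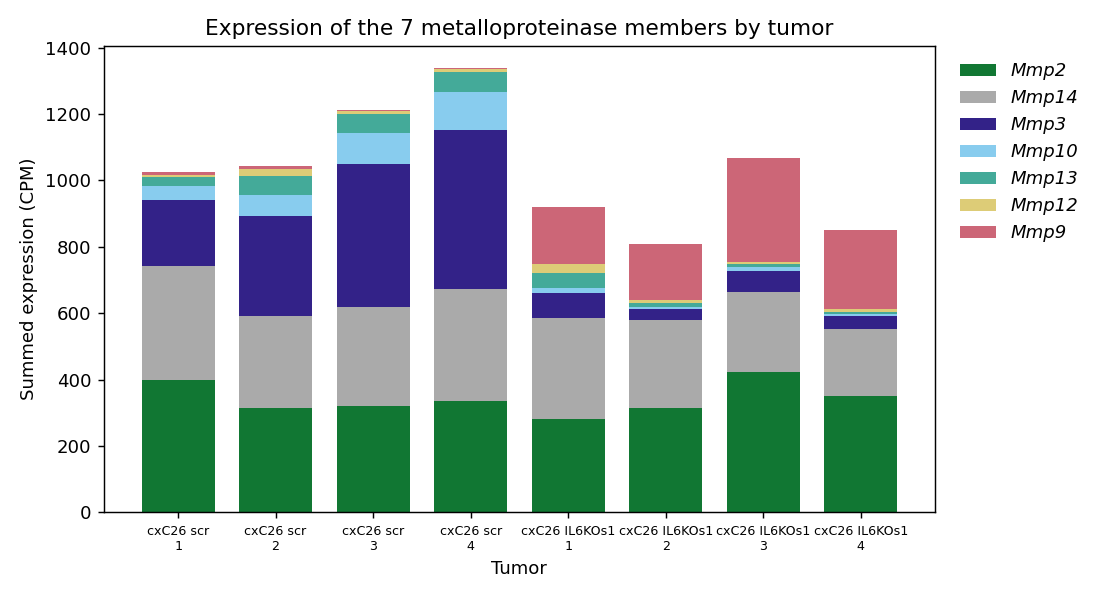
Expression in CPM (y axis) of the 7 metalloproteinase members, stacked by gene, in each of the 8 tumors (x axis). Mmp9 in red is at most 0.93% of the stack in the cxC26 scr tumors and at least 18.7% in the cxC26 IL6KOs1 tumors, where Mmp3 in dark blue and Mmp10 in light blue are smaller in all 4.

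The first cxC26 IL6KOs1 tumor lay at an end of its group in most members. It had the highest Mmp3, Mmp10, Mmp12, Mmp13, Mmp14 and Timp2 of its group and the lowest Mmp2, Timp1 and Timp3. The gap to the next tumor was wide for Mmp13 (5.46 against 3.55 log2 CPM) and small for Mmp3 (6.20 against 5.98). The macrophage markers of this tumor summed to 1414 CPM, against 905 to 1037 in the other 3 knockout tumors. Its mast cell markers summed to 24.4 CPM, against 132 to 143. The T cell and neutrophil sums were also the highest of the group, at 14.4 and 31.6 CPM. Its fibroblast and endothelial sums were the lowest, at 1967 and 105 CPM, and its osteoclast and epithelial sums lay between the others. Whether these move the members was not tested.
Spread between tumors was itself uneven among the members. The pooled SD within groups was 0.92 for Mmp12 and Mmp13, at the 98.6th percentile of all tested genes, and 0.73 for Mmp10, at the 97.0th. It was 0.076 for Timp2, at the 3.74th percentile.

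Over all 13262 tested genes, 19.1% were called higher and 20.7% lower, the shares to set beside the counts of the lists below. Of 16 further metalloproteinases and Timp4, 7 genes passed the filter. By limma 0 were called higher (0 at an unadjusted p-value under 0.05) and 2 lower. Beside Mmp8 this was Mmp19, a broadly expressed secreted MMP, with 3159 to 3702 reads in the cxC26 scr tumors and 509 to 921 in the cxC26 IL6KOs1 tumors. Its log2 difference was -2.21 (SE 0.148, limma adjusted p = 1.76e-06). Mmp25, a membrane-anchored MMP of neutrophils, had 2 to 7 and 8 to 51 reads, was below the filter, and was named after its values were seen.
Among 18 activators, docking proteins and other inhibitors, 15 were tested, 6 were higher and 4 lower, against 19.1% and 20.7% of all tested genes. Lcn2, which binds Mmp9 in a complex, rose by 1.81 on the log2 scale (limma adjusted p = 0.000308). Serpine2, a protease inhibitor, rose by 0.84 (adjusted p = 0.0216), and Itgb3, the beta chain of the integrin that docks Mmp2, by 0.78 (adjusted p = 0.00648), both from limma. Reck, a membrane inhibitor of MMPs, rose by 0.78 (limma adjusted p = 0.00146) and is named for its role. The call of Serpine2 was lost without cxC26 scr replicate 3 or 4 or cxC26 IL6KOs1 replicate 3, with limma adjusted p-values from 0.0641 to 0.0666.
Lower genes included members of the plasminogen system, which activates MMP proenzymes. Plaur, the urokinase receptor, had a log2 difference of -1.13 (adjusted p = 0.000157), and Furin, which cleaves proMmp14, of -0.86 (adjusted p = 0.000291), both from limma. Plat, the tissue plasminogen activator, had one of -0.71 (limma adjusted p = 0.0326). Urokinase itself, Plau, named for its role, did not pass, with a log2 difference of -0.34 (limma adjusted p = 0.184).
The related ADAM and ADAMTS proteases went both ways. Of 18 tested genes 6 were higher and 6 lower, against 19.1% and 20.7% of all tested genes. The largest falls were those of Adam19 (log2 difference -2.14), Adamts14, which processes procollagen (-1.84), and the aggrecanase Adamts4 (-1.504), with adjusted p-values from 9.78e-07 to 1.80e-05 from limma. The largest rises were those of Adam8 (0.94), the procollagen protease Adamts2 (0.83) and Adamts6 (0.71). The call of Adamts6 was close to the threshold (limma adjusted p = 0.0442) and was lost under 11 of 17 other settings, among them leaving out cxC26 scr replicate 1, 2, 3 or 4 or cxC26 IL6KOs1 replicate 3 or 4, with limma adjusted p-values from 0.0540 to 0.128. That of Adamts2 was lost without cxC26 scr replicate 2, 3 or 4 or cxC26 IL6KOs1 replicate 3, at 0.0510 to 0.0629.
Of 11 tested matrix substrates, 6 were lower and 1 higher, against 20.7% and 19.1% of all tested genes. Versican (Vcan) fell by 2.03 on the log2 scale, fibronectin (Fn1) by 0.95 and Col5a1 by 0.90, with adjusted p-values of 0.000125, 0.0197 and 0.000514 from limma. Fn1 lost its call without cxC26 scr replicate 1 (limma adjusted p = 0.0583) or cxC26 IL6KOs1 replicate 2 (limma adjusted p = 0.0531). Of the 7 AP-1 subunits, Fosb (-0.83), Fosl2 (-0.66) and Junb (-0.35) were lower and Jund (0.46) was higher, with adjusted p-values from 0.000765 to 0.0174 from limma. Fos, Fosl1 and Jun did not pass the test, and Jund did not without cxC26 scr replicate 3 or 4 (limma adjusted p-values of 0.0530 and 0.0540).

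Markers of cell types were compared between the same groups, and their lists did not all go one way. Over all 13262 tested genes, 19.1% were called higher and 20.7% lower. Of the osteoclast markers, 6 of 6 tested genes were higher, and the summed CPM of the list was 42.4 to 50.5 in the cxC26 scr tumors and 317 to 785 in the cxC26 IL6KOs1 tumors. Dcstamp and Oscar had at most 0.51 and 0.71 CPM in any control tumor, and Atp6v0d2 had 0.27 to 1.82. Dcstamp and Oscar passed the filter only through the knockout tumors, so nothing is read from their calls. Calcr, a defining osteoclast gene, had 10 reads over the 8 tumors. Which cells made Mmp9 was not tested. Of the macrophage markers 7 of 7 were higher (454 to 619 against 905 to 1414 summed CPM). Of the neutrophil markers 1 of 3 tested genes was higher, with 12.1 to 22.8 and 18.5 to 31.6 summed CPM, and Ly6g had 3 reads over all tumors. Among those below the filter, Ngp had 1 to 2 reads in control and 13 to 39 in knockout tumors, and Camp 0 to 3 and 6 to 16. Cxcr2, Retnlg and Mpo, also below the filter, overlapped between the groups.
Mast cell markers were higher in 5 of 5 tested genes (9.38 to 13.3 against 24.4 to 143 summed CPM), and T cell markers in 3 of 3 (0.95 to 2.56 against 7.40 to 14.4). Of these T cell genes, Cd3g and Cd8a had at most 0.34 and 0.22 CPM in any control tumor. They passed the filter only through the knockout tumors, so nothing is read from their calls. Fibroblast markers were lower in 4 and higher in 1 of 7 (3037 to 4135 against 1967 to 2920 summed CPM). Of the endothelial markers 0 of 5 were called by limma (0 at an unadjusted p-value under 0.05), with 95.3 to 148 and 105 to 130 summed CPM. Epithelial markers were higher in 2 of 3 tested genes, Cdh1 and Krt18. The summed CPM was 1079 to 1289 against 1325 to 1450, most of it from Krt20 (1074 to 1285 against 1306 to 1423 CPM). Krt20 itself did not pass the test (limma adjusted p = 0.102). Each marker had reads in at least 1 tumor, and the part of these cells in the levels of the members was not tested.

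**Figure D5:**
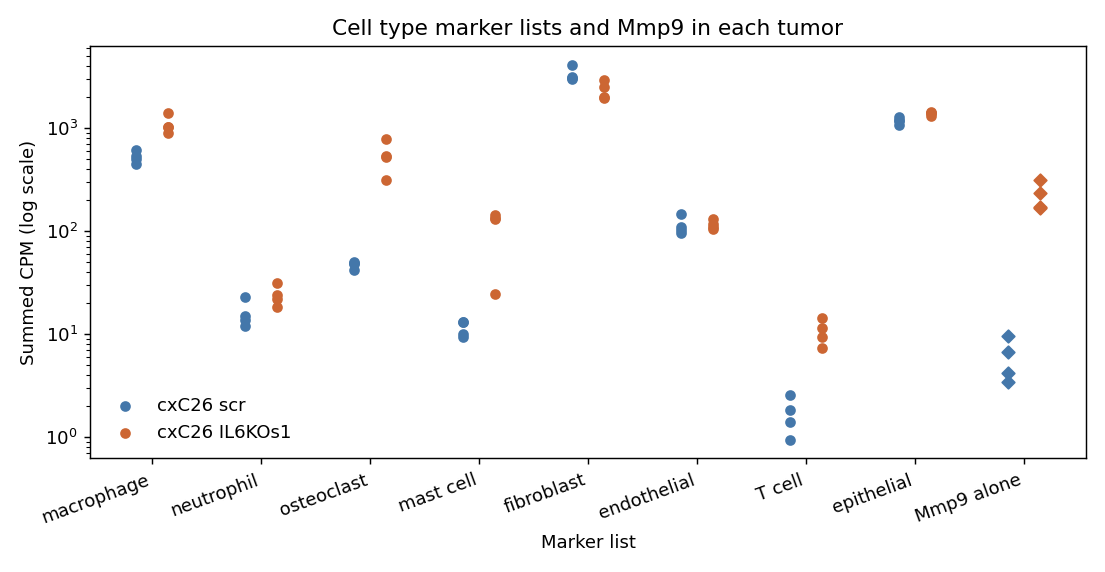
Summed CPM on a log scale (y axis) of 8 marker lists (x axis, circles) and CPM of Mmp9 alone (diamonds) in each cxC26 scr tumor (blue) and cxC26 IL6KOs1 tumor (orange). The osteoclast, mast cell, macrophage, T cell and epithelial lists lie higher in all 4 knockout tumors, as does Mmp9. The fibroblast list lies lower in all 4, and the neutrophil and endothelial lists overlap.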

How the data were processed

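Tumor RNA was enriched with oligo(dT) and sequenced as paired reads of 150 bp. The authors trimmed reads with Trimmomatic, aligned them to mm10 (GRCm38) with Hisat2, counted them with featureCounts and deposited log2 CPM values from limma-voom. Versions, gene annotation, strand setting and treatment of multi-mapped reads are not given in the sources used here. Groups and replicate numbers came from the sample titles, and nothing in the labels pairs the tumors.
Inverting the voom formula at the lowest value of each tumor gave reads, and 100% were whole within 0.01. Genes that reached 1 CPM in 4 or more tumors were tested with limma 3.58.1 in R 4.3.3 (moderated variance with a mean-variance trend, no covariates, two-sided, Benjamini-Hochberg adjustment over all 13262 tested genes). No count test was run on the recovered reads, and voom weights on them were an alternative. The other alternatives were 2 other filters, 2 other scalings, a replicate block, each tumor left out, 2 other variance models, a pseudocount of 1 CPM and a 2-fold threshold. The method was tested on simulated data.
Members and lists were chosen with earlier results of these data known. From each wider list, up to 3 called genes with the largest change in each direction are named. Some genes of these lists are not reported here. Positions and lengths came from GENCODE M21 and promoters from RefSeq (GRCm38.p6). Counting error sets the precision of genes with few reads.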

Additional observations from a re-analysis of the deposited data

Results flagged for a closer look

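Values apart from the other 3 tumors of their group were sought with Dixon's critical value for 4 samples in 66 groups of 4 values, covering the 10 members and the named genes of the wider lists. There were 6, where about 3.3 come by chance, since chance marks about 1 group in 20. On the log2 CPM scale, Mmp13 was low in cxC26 scr tumor 1 (4.81), and its other control values were 5.85 to 5.88. Mmp8 was high in cxC26 scr tumor 2, at 1.43 against 0.34 to 0.45, on at most 43 reads. The same tumor was low in Mmp19, at 7.61 against 7.79 to 7.83, and in Adamts4, at 5.997 against 6.54 to 6.62. Lcn2 was high in cxC26 IL6KOs1 tumor 1, at 3.93 against 3.17 to 3.28. The targeted gene Il6 was high in cxC26 IL6KOs1 tumor 3, at 2.46 against 1.99 to 2.04.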

How the results depend on the processing

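Mmp3 and Mmp10 kept their direction and call under all 17 other settings, and Mmp9 stayed between 5.04 and 5.53 log2 units with each tumor left out. The number of members called higher was 1 and became 0 with all genes tested and 0 with a 2-fold threshold, and it was 0 to 1 with each tumor left out (0 without cxC26 scr replicate 2, 3 or 4). The number called lower was 4 and became 2 with an ordinary variance per gene, and it was 3 to 4 with each tumor left out. A 2-fold threshold left 829 of 2529 higher and 521 of 2748 lower genes. Members that were not called changed sign in places. Mmp2 was at 0.022 and Mmp12 at -0.010 with quantile normalization, and with each tumor left out they ranged from -0.12 to 0.078 and from -0.40 to 0.50. The cause was not tested. The deviations of tumors with the same number correlated at -0.059 to 0.057, so the numbers were not taken as pairs. With the replicate block 3 members were lower and 1 higher, and the adjusted p-value of Timp1 was 0.0632 from limma. Not every tumor correlated best with its own number. Of the further metalloproteinases, 2 were called lower, and 1 with a filter of 3 log2 CPM on the mean, with an ordinary variance, or without any of 6 tumors. The calls of Serpine2, Adamts2, Fn1 and Jund were also lost with all genes tested and with an ordinary variance, at limma adjusted p-values from 0.0620 to 0.103. The 4 tumors of a group limit small differences such as those of the TIMPs.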

Other observations

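The other members were set beside the gene with the nearest centred profile over the 8 tumors, among 9997 genes. These were Ppip5k1 for Mmp2, Il1b for Mmp12, Eno2 for Mmp13, Map2k1 for Mmp14, Nek6 for Timp1, Pip4k2c for Timp2 and Cenpm for Timp3. The root mean square differences ranged from 0.0272 log2 units for Timp2 to 0.418 for Mmp12. The measure is smaller for members that vary little, so it ranks no member against another.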
